A study of Rattus norvegicus with 69 samples.

Results

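Potassium channel genes were followed in the CA1 region of the rat hippocampus after sleep deprivation (SD) and after the stress of an unfamiliar environment (NES). The members were all genes whose single symbol in the annotation of the array starts with Kcn, which gave 54 of the 4736 genes measured. Each gene was read from its probe set with the highest mean log2 signal over the 69 arrays, called the brightest probe set here, and no gene was dropped for a low signal. By symbol, 27 genes encode voltage-gated pore-forming or silent subunits, 4 encode auxiliary subunits of voltage-gated channels (Kcnab and Kcne), 15 encode inward rectifiers (Kcnj), 5 belong to the calcium-activated group (Kcnma, Kcnmb, Kcnn and Kcnt) and 3 encode two-pore channels (Kcnk).

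The animals were male Fischer 344 rats between 3 and 5 months old, each with 1 array. Home cage controls (HC, 17 arrays) were compared with rats kept on platforms above water for 24 hours (24SD, 16 arrays) or 72 hours (72SD, 20 arrays), and with rats held for 24 hours (24NES, 10 arrays) or 72 hours (72NES, 6 arrays) in the same chambers with a rubberized grid laid over the platforms, on which they were free to sleep. Cohort 1 held 5 HC, 8 24SD, 8 72SD and all NES arrays, cohort 2 held 12 HC, 8 24SD and 12 72SD arrays, and NES was therefore compared with the 5 HC arrays of cohort 1 only. The values were MAS5 signals, a linear intensity per probe set on arrays scaled to a common target. The HC and SD rats of cohort 1 had learned an active avoidance task beforehand and no training is stated for the NES rats, so that training and NES cannot be told apart in NES against HC, nor training and treatment in SD against NES within cohort 1. The methods state, without showing it, that no training effect was seen on the arrays. SD rats were deprived in pairs of cage mates that the labels do not identify, so that animals sharing a chamber were treated as independent. Each sample was a block of CA1 with all of its cells, in which fewer cells of a type and less RNA per cell cannot be told apart.

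Potassium channels let potassium leave or enter the cell and thereby set its resting potential and end its action potentials. Voltage-gated channels open on depolarization and shape spike width, firing rate and dendritic excitability in pyramidal cells and interneurons. Inward rectifiers hold the resting potential, carry the response to G-protein-coupled receptors, link excitability to ATP and, in astrocytes, take up the potassium that active neurons release. Calcium-activated channels produce the afterhyperpolarization that follows spikes, and two-pore channels carry the background leak.

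No potassium channel gene passed an adjusted p of 0.05 in SD against HC, in NES against HC or between SD and NES. The gene with the smallest p at 24 hours of either treatment was Kcnj10, the inward rectifier of astrocytes (Kir4.1), whose signal was lower than in HC. Among voltage-gated genes, 24NES arrays had higher mean log2 signals than HC for Kcnc1, Kcnc2 and Kcna4 and lower ones for Kcnh3 and Kcns3. None passed the adjusted test, the arrays overlapped HC for each gene, and the further probe sets of Kcnc2 differed in sign. The cohorts themselves differed in 31 of the 54 genes, where 52.7% of all genes differed.

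Kcnj10 lies beside Kcnj9, the G-protein-activated rectifier subunit Kir3.3, on chromosome 13, where 14.2 kb separate the genes, and both had an unadjusted p under 0.05 at 24SD. The 250 bases before the RefSeq start of each gene (build GRCr8) are shown because the pair is divergent and both signals were lower at 24SD. They lie at chr13:87334260-87334509 on the plus strand for Kcnj10 and at chr13:87320294-87320543 on the minus strand for Kcnj9. Each is written 5′ to 3′ in the direction of its gene, and capitals mark matches on either strand to the Sp1 box GGGCGG and to the CCAAT box.
Kcnj10: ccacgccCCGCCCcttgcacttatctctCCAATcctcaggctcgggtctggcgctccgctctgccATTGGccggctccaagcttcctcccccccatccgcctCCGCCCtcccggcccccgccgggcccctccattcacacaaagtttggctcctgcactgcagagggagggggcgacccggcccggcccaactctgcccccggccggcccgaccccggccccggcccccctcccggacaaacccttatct
Kcnj9: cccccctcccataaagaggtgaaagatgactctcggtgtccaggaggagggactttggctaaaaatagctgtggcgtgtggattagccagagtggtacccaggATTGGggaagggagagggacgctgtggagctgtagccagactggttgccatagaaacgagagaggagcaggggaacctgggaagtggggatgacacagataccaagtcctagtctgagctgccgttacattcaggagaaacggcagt

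The Kcnj10 stretch was 72.4% G or C, more than 94.3% of the 33469 promoters of the RefSeq table, whose median was 51.2%. It held 2 matches to GGGCGG, found in 30.5% of those promoters, and 2 to CCAAT, found in 34% of them. The Kcnj9 stretch was 54.8% G or C, with 1 match to CCAAT and none to GGGCGG. The TATA box TATAAA, found in 12.9% of promoters on either strand, was in neither stretch. Neither held the E-box CACGTG, found in 5.59% of promoters. The core AGAACA of glucocorticoid receptor elements, found in 17.5% of promoters, was also absent, which says only that these letters are not in these windows.

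Of the 54 genes, 0 passed the adjusted test for SD against HC (F-test over both durations), where 0.127% of all genes passed, and 6 had an unadjusted p under 0.05, where 10.3% of all genes had one. At 24SD 0 genes passed (0.19% of all genes) and 9 had an unadjusted p under 0.05 (15.3% of all genes). At 72SD 0 passed (0.0211%) and 4 had an unadjusted p under 0.05 (7.35%). The 1-way ANOVA of the methods, on signals standardized within cohort, called 0 of the 54 after adjustment as well, and 8 before it with values beyond 2 standard deviations removed or 5 without removal. The median log2 change of the 54 genes was -0.03 at 24SD and 0.00 at 72SD, against -0.03 and -0.02 over all genes. The shares of Kcn genes with an unadjusted p under 0.05, of 11.1%, 16.7% and 7.41%, were thus near those of all genes.

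**Figure D1:**
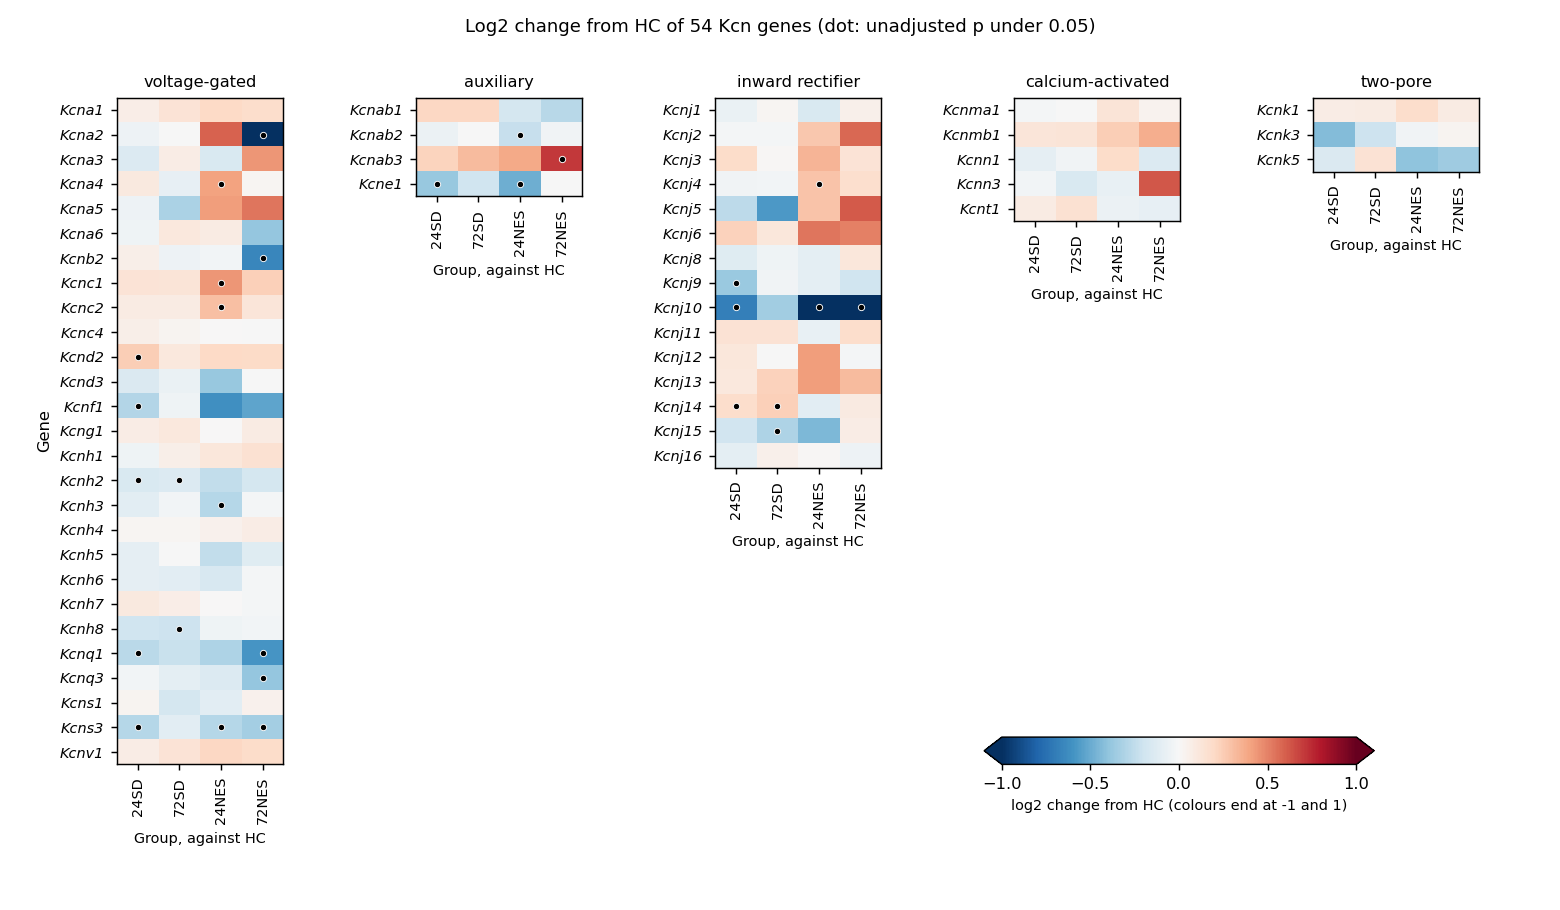
Log2 change from HC (colour, limited to -1 and 1) of the 54 Kcn genes in 24SD, 72SD, 24NES and 72NES, 1 row per gene in 5 groups by symbol; dots mark an unadjusted p under 0.05. All 4 comparisons use HC arrays in common, and 9, 4, 9 and 7 genes carry a dot.

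NES was compared with HC within cohort 1, against the same 5 HC arrays that the SD groups of that cohort share. No gene of the array passed the adjusted test in any NES comparison with HC (0% of all genes), and 9 of the 54 Kcn genes had an unadjusted p under 0.05 over both durations, where 8.64% of all genes had one. At 24NES 9 Kcn genes had one (11.2% of all genes) and at 72NES 7 (5.05% of all genes), which are 16.7% and 13% of the family. The median log2 change of the 54 genes was -0.01 at 24NES and 0.03 at 72NES, against -0.01 and 0.01 over all genes, and the median size of the change at 24NES was 0.20 against 0.16. Among markers of other cell types, the 3 blood genes measured were all lower at 24NES with a median log2 change of -0.50, and Neurod1, a marker of dentate granule cells beyond the CA1 border, was higher by 0.50, each with an unadjusted p under 0.05 and 0 passing after adjustment. Neither shift was confined to NES. In cohort 1 the median summed blood signal was 15415.9 for HC, above 24SD (12181.2) and 72SD (11582.8). In cohort 2 the HC median was the lowest (11646.3, against 17250.6 at 24SD and 15757.6 at 72SD). Neurod1, the only 1 of 4 listed dentate markers measured, was 0.36 higher at 24SD over both cohorts, not past adjustment. Its lowest 24SD array of cohort 1 (2106.6) exceeded the highest HC array (1808.7), where 0.908% of all genes had 24SD arrays that did not overlap HC. The part of blood and dentate cells in the values of the Kcn genes was not tested.

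Kcnj10 had signals of 985.1, 920.5, 992.2, 723.8 and 1265.9 in the 5 HC arrays of cohort 1. The 8 24SD arrays of that cohort ran from 373.2 through a median of 426.3 to 718.2, below every HC array. The 72SD arrays of cohort 1 ran from 251.4 through 842.75 to 1261.1 and overlapped HC. Kcnj10 was the only one of the 54 genes whose 24SD arrays did not overlap HC in cohort 1, where 0.908% of all genes were so placed. For 72SD, 24NES and 72NES 0 Kcn genes were so placed, against 0.465%, 0.422% and 0.908% of all genes. In cohort 2 the groups overlapped, with 338 to 1273 and a median of 775.5 in HC, 291.8 to 927.4 with a median of 616.1 in 24SD, and 284 to 1104.4 with a median of 613.9 in 72SD.

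Over both cohorts the log2 change of Kcnj10 was -0.69 ± 0.20 (SE) at 24SD with an adjusted p of 0.0767, and -0.34 ± 0.18 at 72SD with an adjusted p of 0.661. The signal was below the HC mean of the same cohort in 14 of 16 24SD arrays and in 15 of 20 72SD arrays. The 24SD change was -1.06 ± 0.31 in cohort 1 alone (adjusted p = 0.158) and -0.43 ± 0.25 in cohort 2 alone (adjusted p = 0.584), and the test of the difference between the cohorts gave an adjusted p of 0.936. With the genes limited to the upper 50% of signals, the 24SD change of Kcnj10 passed at an adjusted p of 0.0476, while the other settings gave adjusted p-values from 0.0768 to 0.584.

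**Figure D2:**
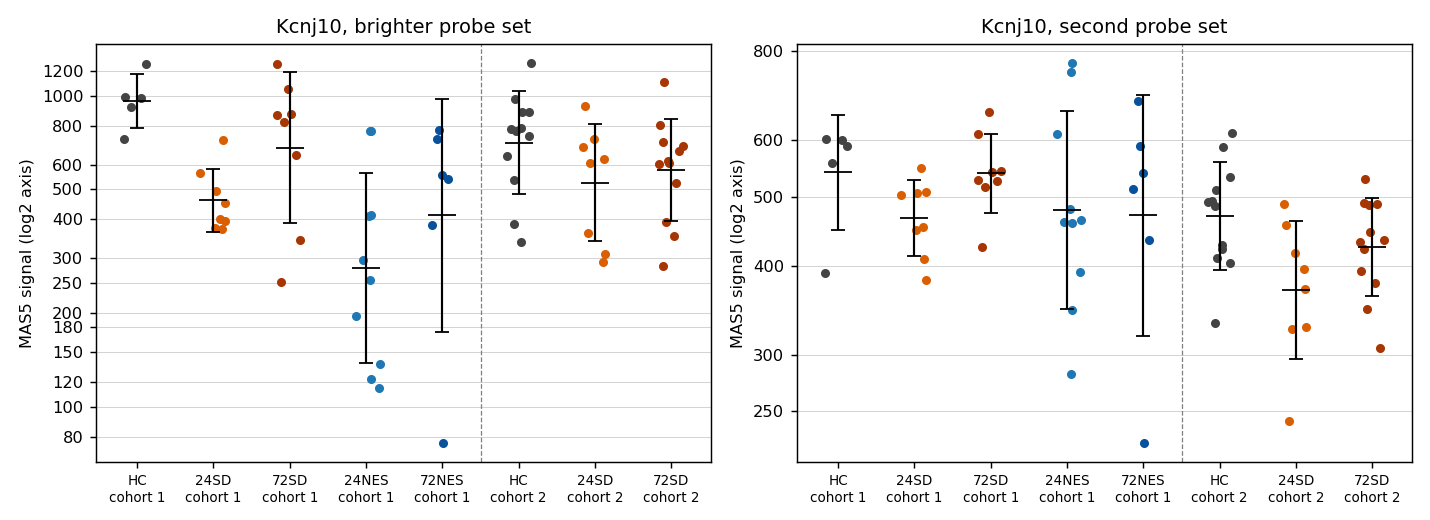
Kcnj10 signal (log2 axis) on every array, by group and cohort, for the brighter probe set (left) and the second probe set (right); black bars are the mean of log2 signals and 1 standard deviation on either side. On the brighter probe set the 24SD arrays of cohort 1 lie between 373.2 and 718.2, below all 5 HC arrays, and the NES arrays spread from 76.6 to 774.1.

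NES arrays had a wider spread of Kcnj10 signal. The 10 24NES arrays ran from 114.6 through a median of 275.6 to 771.2, and the 6 72NES arrays from 76.6 through 546.25 to 774.1. All 10 24NES and all 6 72NES arrays were below the HC mean, although the highest of each group overlapped the lowest HC array. Kcnj10 had a log2 change of -1.79 ± 0.51 (SE) at 24NES (adjusted p = 0.205) and -1.22 ± 0.56 at 72NES (adjusted p = 0.932). When all 69 arrays shared one estimate of the spread, the 24NES change was the same but its SE was 0.39, and it passed at an adjusted p of 0.0095. The lowest 72NES value came from array 71, which also had the highest GAPDH 3′ to 5′ ratio of all arrays (1.26), and without it the 72NES change was -0.74.

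The second Kcnj10 probe set gave smaller differences. Its HC signals in cohort 1 were 600.7, 557.2, 602.4, 390.8 and 589.4, and the 24SD arrays ran from 382.4 through 478.8 to 548.1. In cohort 2 it ran from 332.8 through 488.85 to 614.9 in HC and from 242.6 through 383.8 to 488 in 24SD. The log2 change of this Kcnj10 probe set was -0.30 ± 0.08 (SE) at 24SD (adjusted p = 0.0924 over all 8740 probe sets), -0.10 at 72SD, -0.17 at 24NES and -0.20 at 72NES. It was thus below HC in 14 of 16 24SD arrays, as was the brighter probe set, but in only 7 of 10 24NES arrays, which ran from 282 to 770.5. At 24NES the probe sets of Kcnj10 thus stood at -1.79 and -0.17.

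Markers of astrocytes, in which Kcnj10 is mainly found in the brain, were examined beside it. Of 8 listed markers 7 were measured, none of them at the floor of the signal, and none passed the adjusted test for SD or NES. At 24SD 4 of 7 were higher and 3 lower than in HC, with a median log2 change of 0.00, and Aqp4, the water channel of astrocyte endfeet, was at -0.21 ± 0.10 (SE, adjusted p = 0.282). At both 24NES and 72NES 6 of 7 were lower, with medians of -0.11 and -0.08, and Slc1a2, the main glutamate transporter of astrocytes, was at -0.26 ± 0.14 and -0.51 ± 0.16. The summed signal of the 7 markers ranged from 91820 to 99719 in HC of cohort 1, from 95285 to 108465 in 24SD, from 76446 to 107942 in 24NES and from 86564 to 109847 in 72NES. In cohort 2 it ranged from 94290 to 120089 in HC and from 96254 to 112114 in 24SD. Most of this sum is from Slc1a3, Glul, Aldoc and S100b, with mean signals of 14037 to 29268. Aqp4 and Slc1a2, at 1336 and 854, hardly move it. The part of astrocyte content in the NES values of Kcnj10 was not tested.

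The inward rectifiers were counted together, Kcnj10 included. At 24SD 6 of 15 were higher and 9 lower than in HC, at 72SD 7 were higher and 8 lower, and 3 and 2 of them had an unadjusted p under 0.05. Kcnj14 (Kir2.4), a strong rectifier, was the only inward rectifier with an unadjusted p under 0.05 and a signal above HC, at either duration. Its HC signals in cohort 1 were 158.9, 235.5, 193.1, 202.1 and 130, and the 72SD arrays ran from 156.6 through 202.2 to 269.2. In cohort 2 Kcnj14 ran from 155.1 through 198.5 to 214.4 in HC, from 193.5 through 225.15 to 267.8 in 24SD and from 157.8 through 237.25 to 290.1 in 72SD. The groups overlapped in both cohorts, and 12 of 16 24SD and 17 of 20 72SD arrays were above the HC mean of their cohort. The log2 change of Kcnj14 was 0.18 ± 0.09 (SE) at 24SD (adjusted p = 0.323) and 0.24 ± 0.08 at 72SD (adjusted p = 0.459) over both cohorts. In cohort 1 alone it was 0.07 ± 0.17 at 24SD and 0.22 ± 0.17 at 72SD. In the NES groups, all of cohort 1, it was -0.11 ± 0.19 at 24 hours and 0.09 ± 0.21 at 72 hours. Within cohort 1, 24SD was at 0.18 ± 0.15 against 24NES (adjusted p = 0.921).

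Kcnj9 had low signals, of 63.8, 58.4, 102.3, 83.9 and 71.3 in HC of cohort 1, 41.4 through 59.25 to 80.2 in 24SD and 68.5 through 77.6 to 98.5 in 72SD. In cohort 2 Kcnj9 ran from 66.2 through 92.05 to 235.2 in HC, from 44.9 through 75.2 to 95.6 in 24SD and from 52.3 through 82.05 to 212 in 72SD. The 24SD arrays were the low ones in both cohorts, with 14 of 16 below the HC mean, and overlapped HC. Its log2 change was -0.37 ± 0.14 (SE) at 24SD (adjusted p = 0.171) and -0.04 ± 0.13 at 72SD. Within cohort 1, Kcnj9 was at -0.10 ± 0.20 at 24NES and -0.20 ± 0.22 at 72NES. The 72SD value was 0.34 ± 0.13 above 24SD, the single Kcn gene with an unadjusted p under 0.05 between the durations (adjusted p = 1), where 3.8% of all genes had one.

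Kcnj4 (Kir2.3), a strong rectifier of forebrain neurons, had signals of 629.6, 632.7, 621.2, 605.3 and 533.1 in HC of cohort 1. The 24NES arrays ran from 525.6 through 754.6 to 909.9, the 24SD arrays from 471.9 through 592.25 to 712.4. The NES arrays were high against both groups, with overlap. The log2 change of Kcnj4 at 24NES was 0.28 ± 0.13 (SE, adjusted p = 0.417), and 24SD was at -0.31 ± 0.11 against 24NES in cohort 1 (adjusted p = 0.657). Its second probe set was at -0.11 at 24NES, opposite in sign.

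Kcnj15 (Kir4.2) and Kcnj16 (Kir5.1) encode rectifier subunits of which the second joins Kir4.1 in one channel. Kcnj16 had signals of 235.3, 245.8, 283.4, 248.3 and 199.2 in HC of cohort 1, with 24SD arrays from 178.7 to 279.2, and its log2 changes were -0.09 at 24SD, 0.05 at 72SD, 0.02 at 24NES and -0.05 at 72NES. Kcnj15 was at 255 to 409.4 with a median of 362.4 in HC of cohort 1, at 76.3 to 391.2 with a median of 280.95 in 72SD and at 102 to 397.2 with a median of 257.05 in 24NES. Kcnj15 had a log2 change of -0.31 ± 0.15 (SE) at 72SD (adjusted p = 0.661) and -0.45 ± 0.25 at 24NES (adjusted p = 0.508). Kcnj11 (Kir6.2), the pore of the ATP-sensitive channel, had 1669.5, 1750.2, 1688.3, 2042.7 and 1903.4 in HC of cohort 1 and log2 changes of 0.14 at 24SD, 0.15 at 72SD, -0.07 at 24NES and 0.17 at 72NES. Kcnj11 arrays of every treated group overlapped HC.

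Voltage-gated genes were divided evenly at 24SD, with 12 of 27 higher and 15 lower than in HC and a median log2 change of -0.04. At 72SD the numbers were also 12 and 15, with a median of -0.01. Kcnh2, the ERG channel that carries a slow potassium current between spikes, was low at both durations. Its signals were 1621.6, 1740.6, 1672.5, 1700.4 and 1579.4 in HC of cohort 1, 1347.2 through 1481.9 to 1608.9 in 24SD and 1148.9 through 1463.5 to 1622.1 in 72SD. There 3 of 8 24SD and 2 of 8 72SD arrays reached the HC range, while in cohort 2 the groups overlapped more widely, with 1098.9 through 1327.8 to 1653.4 in HC, 979.9 through 1182 to 1378.6 in 24SD and 1013.4 through 1247.2 to 1475.2 in 72SD. Kcnh2 had a log2 change of -0.15 ± 0.06 (SE) at 24SD (adjusted p = 0.199) and -0.14 ± 0.06 at 72SD (adjusted p = 0.577). It was low in the NES groups as well, at -0.25 ± 0.14 at 24 hours (adjusted p = 0.507) and -0.17 ± 0.15 at 72 hours (adjusted p = 0.991). A second Kcnh2 probe set was at 0.12 at 72SD, opposite in sign.

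Kcns3 and Kcnf1, like Kcnh2 and Kcnj14 above, are among the genes that the study picked from these same arrays, so that their values are not independent evidence. Both encode silent subunits, which form no channel alone and modify delayed rectifiers of the Kcnb group. Kcns3 had signals of 751.5, 1034.9, 1256.9, 838.5 and 1211.4 in HC of cohort 1, 552.9 through 777.75 to 1082.8 in 24SD and 818.8 through 921.9 to 1160.6 in 72SD. In the NES groups Kcns3 ran from 722.1 through 768.3 to 1131.2 at 24 hours and from 639.3 through 803.4 to 906.2 at 72 hours. All 4 treated groups had lower medians than HC and overlapped it. Kcns3 had a log2 change of -0.28 ± 0.10 (SE) at 24SD (adjusted p = 0.164), -0.10 at 72SD, -0.29 ± 0.13 at 24NES (adjusted p = 0.417) and -0.34 ± 0.15 at 72NES (adjusted p = 0.932). Kcnf1 had 358.1, 182.2, 270.7, 397.6 and 253.5 in HC of cohort 1, 139.9 to 265.5 with a median of 216.9 in 24SD, and 90.1 to 254.7 with a median of 212.7 in 24NES. Its log2 change was -0.29 ± 0.14 at 24SD (adjusted p = 0.302), -0.04 at 72SD, -0.61 ± 0.32 at 24NES and -0.52 ± 0.35 at 72NES.

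Kcnd2 (Kv4.2), the main pore of the A-type current in CA1 dendrites, had signals of 1176, 1072.7, 2131.2, 1145.5 and 1882.3 in HC of cohort 1, split between 3 low and 2 high arrays. The 24SD arrays ran from 1439.8 through 1610.7 to 2249.8, and in cohort 2 from 1776.3 through 2420 to 2772.8 against 1213.6 through 1920.5 to 2699.3 in HC. The medians were higher in 24SD in both cohorts and the groups overlapped. Kcnd2 had a log2 change of 0.24 ± 0.10 (SE) at 24SD (adjusted p = 0.234) and 0.11 ± 0.10 at 72SD, and its second probe set was at -0.06 at 24SD. In the NES groups Kcnd2 was at 0.20 ± 0.19 at 24 hours and 0.19 ± 0.21 at 72 hours.

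Kcnq3, a slow voltage-gated subunit that restrains repetitive firing, had lower medians than HC under SD in cohort 1 and not in cohort 2. In cohort 1 the HC signals were 885, 928.7, 1054.5, 824 and 995.5, the 24SD arrays ran from 663.6 through 762.1 to 1025.2, and the 72SD arrays from 540.8 through 677.7 to 918.7. In cohort 2 Kcnq3 ran from 423.6 through 641.15 to 753.9 in HC, from 603.2 through 660.8 to 707.1 in 24SD and from 515.6 through 652.15 to 724.7 in 72SD. Kcnq3 had a log2 change of -0.28 ± 0.12 (SE) at 24SD and -0.39 ± 0.12 at 72SD in cohort 1 alone (adjusted p = 0.397 and 0.336), against 0.11 ± 0.09 and 0.04 ± 0.08 in cohort 2 alone. The test of the difference between the cohorts gave an unadjusted p of 0.00725 and an adjusted p of 0.492. In the NES groups Kcnq3 ran from 687.6 through 809.5 to 1174.6 at 24 hours and from 504.9 through 673.7 to 976.3 at 72 hours, with medians below that of the same 5 HC arrays. Its log2 change was -0.14 ± 0.15 at 24NES (adjusted p = 0.767) and -0.38 ± 0.16 at 72NES (adjusted p = 0.932), and a second probe set, with signals of 8.4 to 31.3 in HC of cohort 1, was at 0.26 at 72NES. Kcnq3 and Kcnh6 were the 2 Kcn genes with an unadjusted p under 0.05 in that test, which 6.48% of all genes reached and 0.106% passed after adjustment. Kcnh6, an ERG-type gene, had a median of 305.95 in 24SD against 263.8 in HC of cohort 1, and of 226.3 against 264.6 in cohort 2, with overlap in both.

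Kcnh8, a channel of the Elk group, had signals of 359.6, 400.3, 456.6, 521.7 and 326.6 in HC of cohort 1 and 369.8 through 409.1 to 538.5 in 72SD. In cohort 2 Kcnh8 ran from 281.4 through 371.3 to 467.9 in HC and from 175.6 through 287.35 to 470 in 72SD. The 72SD median was thus below that of HC in cohort 2 and not in cohort 1, with overlap in both. Kcnh8 had a log2 change of -0.20 ± 0.10 (SE) at 24SD (adjusted p = 0.341) and -0.21 ± 0.09 at 72SD (adjusted p = 0.642) over both cohorts.

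Kcnb2 (Kv2.2), a delayed rectifier, had signals of 107.3, 190.3, 130.1, 161.7 and 194.6 in HC of cohort 1, 123.3 through 149.55 to 180.7 in 24NES and 28.6 through 124.5 to 163.7 in 72NES. The 72NES arrays overlapped both groups. Kcnb2 had a log2 change of -0.03 ± 0.28 (SE) at 24NES and -0.66 ± 0.31 at 72NES (adjusted p = 0.984), and 72NES was at -0.63 ± 0.27 against 24NES (adjusted p = 0.666).

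The Kcnc genes encode fast delayed rectifiers (Kv3) that let interneurons fire at high rates. Kcnc1 had signals of 1293.3, 1299.7, 817.9, 1394.3 and 1173.3 in HC of cohort 1. The 24NES arrays ran from 1263.7 through 1542.3 to 2108.4 and the 72NES arrays from 1272.1 through 1336.4 to 1565.5, all above the HC mean and overlapping the upper HC arrays. Kcnc1 had a log2 change of 0.44 ± 0.13 (SE) at 24NES (adjusted p = 0.212), 0.24 ± 0.14 at 72NES, 0.13 ± 0.09 at 24SD and 0.13 ± 0.08 at 72SD. Kcnc2 had 2244.2, 2340.2, 1952, 2230 and 2356.7 in HC of cohort 1 and 2188.2 through 2644.4 to 3612.7 in 24NES. The log2 change of Kcnc2 was 0.30 ± 0.12 at 24NES (adjusted p = 0.334), and its 3 further probe sets were at -0.21, -0.18 and 0.05.

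The Kcna genes (Kv1) encode low-threshold channels of axons and dendrites. Kcna4, the inactivating member of axon terminals, had signals of 467.4, 553.1, 530.1, 416.2 and 580.2 in HC of cohort 1. The 24NES arrays ran from 484 through 643.15 to 919.7, the 72NES arrays from 419.3 through 486.9 to 693.2, and the 24SD arrays from 377.5 through 571.5 to 657.9. At 24NES 9 of 10 arrays were above the HC mean, and at 72NES 3 of 6. Kcna4 had a log2 change of 0.40 ± 0.15 (SE) at 24NES (adjusted p = 0.311) and 0.02 ± 0.17 at 72NES, with 72NES at -0.38 ± 0.14 against 24NES (adjusted p = 0.666). Kcna4 in 24SD was at -0.32 ± 0.14 against 24NES (adjusted p = 0.729).

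Kcna2 (Kv1.2), an axonal delayed rectifier, had the smallest p of the family between the NES durations, at low signals. HC of cohort 1 had 88.6, 53.6, 30, 42.6 and 76.3, the 24NES arrays ran from 48.1 through 85.85 to 135, and the 72NES arrays from 11.4 through 21 to 64.3. In 4 of 6 72NES arrays Kcna2 was lower than in every 24NES array and every HC array of cohort 1. The 12 HC arrays of cohort 2, however, ran from 6.4 through 64.8 to 108.5. The log2 difference of 72NES from 24NES was -1.70 ± 0.33 (SE, adjusted p = 0.0983), and without array 71 it was -1.88 and passed at an adjusted p of 0.0436. The second Kcna2 probe set, which ran from 12.1 to 44.1 in 24NES and from 19 to 45.7 in 72NES, was at 0.11 in the same comparison. With signals under 50 set to 50, the difference was -0.65 (adjusted p = 0.564).

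Kcna3 (Kv1.3), known from lymphocytes and microglia as well as neurons, also had low signals, of 76.3, 60.7, 49.6, 79.2 and 68.3 in HC of cohort 1. The 24NES arrays ran from 39.7 through 61 to 78.6 and the 72NES arrays from 50.3 through 90.15 to 190.7. The 72NES arrays were the high ones, 0.59 ± 0.22 (SE, log2) above 24NES (adjusted p = 0.666), and 72SD was at -0.62 ± 0.20 against 72NES (adjusted p = 0.666). Kcna2 and Kcna3 were 2 of the 10 Kcn genes with an unadjusted p under 0.05 between the NES durations, where 7.35% of all genes had one and 0% passed after adjustment. The 2 genes lie 70.5 kb apart on chromosome 2.

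**Figure D3:**
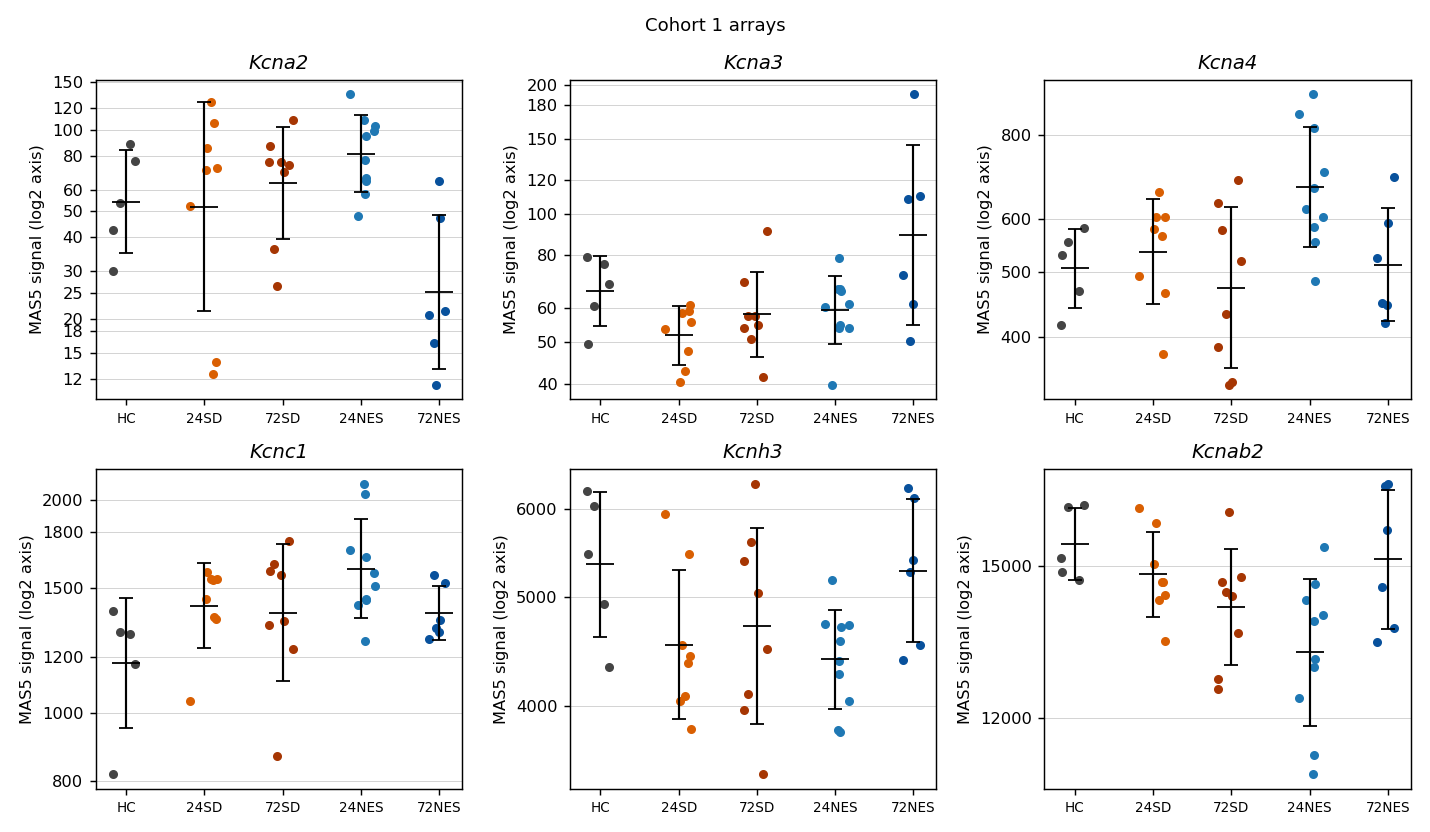
Signal (log2 axis) of Kcna2, Kcna3, Kcna4, Kcnc1, Kcnh3 and Kcnab2 on every array of cohort 1, by group; black bars are the mean of log2 signals and 1 standard deviation on either side. Kcnc1 and Kcna4 have their highest medians in 24NES (1542.3 and 643.15), Kcna2 its lowest in 72NES (21), and every treated group overlaps HC.

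Kcnh3, a forebrain channel of the Elk group, and Kcnab2, the most widely used beta subunit of Kv1 channels, were low in 24NES. Kcnh3 had signals of 4927.3, 6038.1, 5466.3, 6225.6 and 4332.9 in HC of cohort 1, 3791.6 through 4479.5 to 5181.6 in 24NES and 4398 through 5331.6 to 6257.6 in 72NES. Kcnab2 had 14695.7, 16339.6, 14856, 15178.9 and 16400.7 in HC, 11052 through 13463 to 15420 in 24NES, and 13423 through 15174 to 16917 in 72NES. For both genes all 10 24NES arrays were below the HC mean, while 72NES arrays lay on both sides of it, 3 and 3. The log2 change at 24NES was -0.28 ± 0.11 (SE) for Kcnh3 and -0.23 ± 0.09 for Kcnab2 (adjusted p = 0.334 and 0.342), and at 72NES it was -0.02 and -0.03. Against 24NES, 24SD was at 0.16 ± 0.07 for Kcnab2 (adjusted p = 0.692).

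Kcna1 (Kv1.1), a Kv1 channel of axons and terminals, showed small differences on its brightest probe set. Its signals were 1631, 2545.2, 1795.8, 3124.9 and 2873.9 in HC of cohort 1, 2197.6 through 2517.2 to 3800.4 in 24NES and 2373.6 through 2609.7 to 3099.9 in 72SD. The groups overlapped throughout. Kcna1 had a log2 change of 0.06 ± 0.08 (SE) at 24SD, 0.14 ± 0.08 at 72SD, 0.20 ± 0.19 at 24NES and 0.18 ± 0.21 at 72NES, with adjusted p-values of 0.76, 0.661, 0.733 and 0.999.

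A second Kcna1 probe set, described after its values were seen, differed more. In HC of cohort 1 it had 121.2, 484.8, 436.6, 578.2 and 655.9, and the 24NES arrays ran from 724.4 through 986.45 to 1923.5 and the 72NES arrays from 688.8 through 751.1 to 845.8. Both NES groups lay above every HC array of cohort 1 on this probe set. It is 1 of 28 further probe sets, and the share of all probe sets so placed was not counted. By the brightest probe set of each gene, 0.422% of all genes at 24NES and 0.908% at 72NES did not overlap HC of cohort 1, in either direction. The 12 HC arrays of cohort 2 ran from 51 through 836.75 to 977.6, however, so that most of them lay in the range of the NES arrays. The log2 change of this Kcna1 probe set was 1.48 ± 0.31 (SE) at 24NES (adjusted p = 0.103 over all 8740 probe sets), 0.94 ± 0.34 at 72NES (adjusted p = 0.903), 0.52 ± 0.33 at 24SD and 0.62 ± 0.31 at 72SD. Each HC array of cohort 1 was left out in turn, a step added after the values were seen. Without the lowest of them, HC array 1, this Kcna1 probe set was at 1.05 ± 0.22 at 24NES (adjusted p = 0.122) and 0.52 ± 0.24 at 72NES (adjusted p = 0.908), and without any other it was at 1.51 to 1.66 and 0.98 to 1.13.

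**Figure D4:**
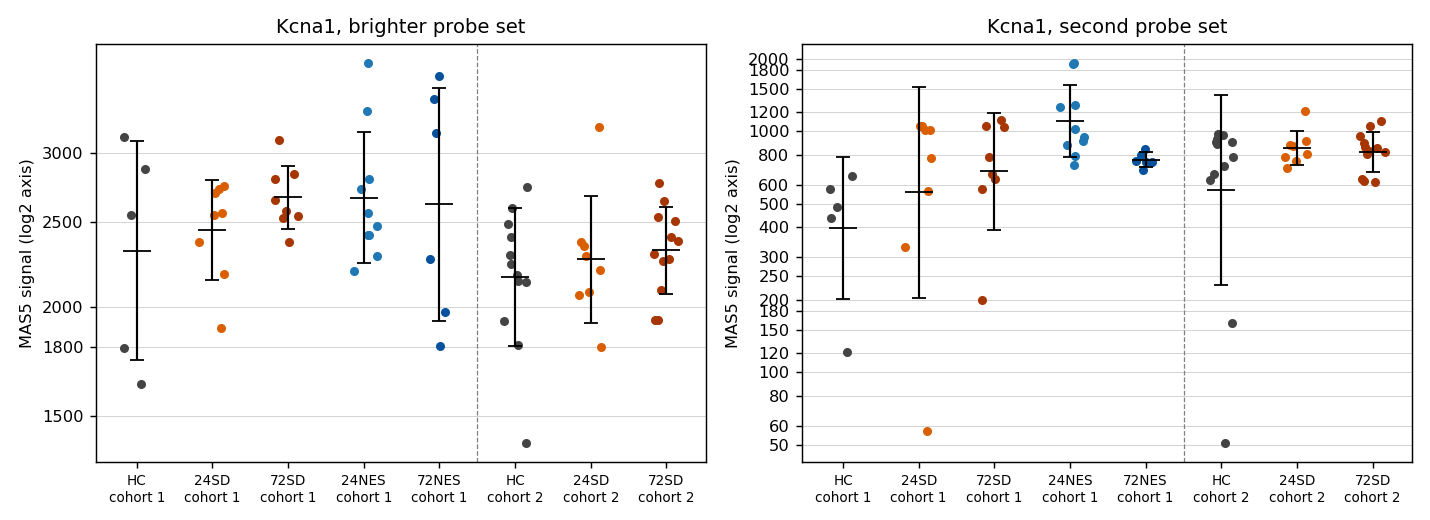
Kcna1 signal (log2 axis) on every array, by group and cohort, for the brighter probe set (left) and the second probe set (right); black bars are the mean of log2 signals and 1 standard deviation on either side. On the second probe set, described after its values were seen, the HC arrays of cohort 1 (121.2 to 655.9) lie below all NES arrays. Those of cohort 2 reach 977.6. By the brightest probe set, 0.422% of all genes at 24NES and 0.908% at 72NES did not overlap HC of cohort 1.

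Of the 4 auxiliary genes 1, Kcne1, had an unadjusted p under 0.05 at 24SD and 0 had one at 72SD. Kcnab1, the beta subunit that speeds inactivation of Kv1 channels, had 2356.2, 2506.1, 2491.3, 2688.2 and 2718.8 in HC of cohort 1. Its log2 changes were 0.21 ± 0.13 (SE) at 24SD and 0.21 ± 0.12 at 72SD over both cohorts. In cohort 1 alone Kcnab1 was at -0.15 ± 0.15 and -0.12 ± 0.15, and in cohort 2 alone at 0.41 ± 0.18 and 0.36 ± 0.16. The test of the difference between the cohorts gave an adjusted p of 0.795. In the NES groups, all of cohort 1, Kcnab1 was at -0.17 ± 0.15 at 24NES and -0.28 ± 0.16 at 72NES. Kcnab3 had 89.7, 172, 78, 89.6 and 184 in HC of cohort 1 and 107.4 through 188.3 to 266.4 in 72NES, a log2 change of 0.71 ± 0.30 (adjusted p = 0.932). Kcne1, known as the partner of Kcnq1 in the heart, had 437.3, 441.5, 410, 480.5 and 374.2 in HC of cohort 1, 200.6 through 294.95 to 485 in 24SD and 159 through 287.05 to 584 in 24NES. Below all 5 HC arrays were 6 of 8 24SD and 7 of 10 24NES arrays. Kcne1 had a log2 change of -0.38 ± 0.15 at 24SD (adjusted p = 0.206), -0.49 ± 0.23 at 24NES (adjusted p = 0.443) and -0.20 at 72SD, and its second probe set was at 0.04 and 0.06 at 24SD and 24NES. Kcnq1 itself was near the lowest signals of the family, at 27, 29, 21.6, 44.1 and 27.3 in HC of cohort 1 and 14.1 to 27 in 72NES, with log2 changes of -0.27 ± 0.13 at 24SD (adjusted p = 0.291) and -0.59 ± 0.21 at 72NES (adjusted p = 0.869).

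Calcium-activated genes showed no member with an unadjusted p under 0.05 against HC in SD or NES. Kcnma1, the pore of the large-conductance (BK) channel, had 826.8, 712.9, 471.3, 890.4 and 712.3 in HC of cohort 1 and log2 changes of -0.02 ± 0.09 (SE) at 24SD and 0.13 ± 0.20 at 24NES. Kcnmb1, its beta subunit of smooth muscle, had 1622.1, 1407.6, 917.6, 1500.2 and 1447.1 in HC of cohort 1 and log2 changes of 0.12 at 24SD, 0.13 at 72SD, 0.24 at 24NES and 0.36 at 72NES. Kcnn1 and Kcnn3, small-conductance (SK) channels of the afterhyperpolarization, were at -0.09 and -0.02 at 24SD. Kcnn3 had signals of 19.9, 14.1, 29.1, 22.4 and 15.4 in HC of cohort 1 and 15.4 through 25.3 to 61.7 in 72NES, where its log2 change was 0.62 ± 0.36 (adjusted p = 0.985).

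Among the two-pore genes Kcnk1 (TWIK-1) had 1559.4, 1475.6, 1195.2, 1880.8 and 1537 in HC of cohort 1 and log2 changes of 0.08 ± 0.10 (SE) at 24SD, 0.08 ± 0.09 at 72SD, 0.18 ± 0.16 at 24NES and 0.08 ± 0.17 at 72NES. Kcnk3 (TASK-1), an acid-sensitive leak channel, had 70.9, 88, 56.8, 67.1 and 56.7 in HC of cohort 1. Over both cohorts its log2 change was -0.43 ± 0.24 (SE) at 24SD (adjusted p = 0.377). In cohort 1 alone the 24SD change of Kcnk3 was -0.003 ± 0.21, and in cohort 2 alone it was -0.73 ± 0.36 (adjusted p = 0.539). Kcnk5 (TASK-2), a leak channel sensitive to alkaline pH, had 296.2, 265.1, 65.2, 288.4 and 223.8 in HC of cohort 1, with log2 changes of -0.15 ± 0.29 at 24SD and -0.40 ± 0.55 at 24NES. Without the low HC array 3 the 24NES change of Kcnk5 was -0.81 ± 0.56 (adjusted p = 0.652), and the 72NES change went from -0.35 to -0.76. None of the 3 genes had an unadjusted p under 0.05 against HC.

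SD and NES were set against each other at matched duration within cohort 1. At 24 hours 4 of the 54 Kcn genes had an unadjusted p under 0.05 (Kcnj4, Kcnh6, Kcnab2 and Kcna4), where 6.08% of all genes had one, and at 72 hours 4 (Kcna3, Kcna2, Kcnj16 and Kcnj15), where 6.31% had one. After adjustment 0 Kcn genes passed at either duration, against 0.0211% and 0% of all genes. Kcnj10 was at 0.72 ± 0.39 (SE, log2) in 24SD against 24NES and at 0.72 ± 0.44 in 72SD against 72NES (adjusted p = 0.84 and 0.829), so that a difference between the treatments was not shown for it. Kcna2 was at 1.34 ± 0.44 in 72SD against 72NES (adjusted p = 0.686), with its second probe set at -0.17.

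The cohorts differed in more Kcn genes than any treatment did. Over HC and SD arrays, with treatment in the fit, 31 of the 54 Kcn genes differed between the cohorts at an adjusted p under 0.05, where 52.7% of all genes did. Of these 11 were higher in cohort 2 and 20 lower, against 23.2% and 29.5% of all genes. Of the 27 voltage-gated genes 13 were lower and 3 higher in cohort 2, and of the 15 inward rectifiers 2 were lower and 5 higher, a difference between the groups that was not tested. With quantile normalization these counts were 12 lower and 3 higher, and 1 lower and 7 higher, and with median centring 12 and 3, and 2 and 6. The 3 largest differences upward were those of Kcnt1, a sodium-activated channel grouped here by symbol with the calcium-activated ones, at 1.39 ± 0.18 (SE, log2), Kcnab3 at 0.89 ± 0.17 and Kcnj12, a strong rectifier, at 0.68 ± 0.16. The 3 largest downward were those of Kcnk5 at -1.17 ± 0.24, Kcns1, a silent subunit, at -0.79 ± 0.21 and Kcnj5, a G-protein-activated rectifier, at -0.70 ± 0.25. These 6 genes had low mean signals, of 44.6 to 193. Kcnt1 ran from 47.6 through 70.1 to 85.5 in HC of cohort 1 and from 59.6 through 174.15 to 314.8 in HC of cohort 2, and Kcnk5 from 65.2 through 265.1 to 296.2 and from 34.4 through 62.5 to 182.1. The study noted a lower array background in the second of the cohorts, and its part in these differences was not tested.

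**Figure D5:**
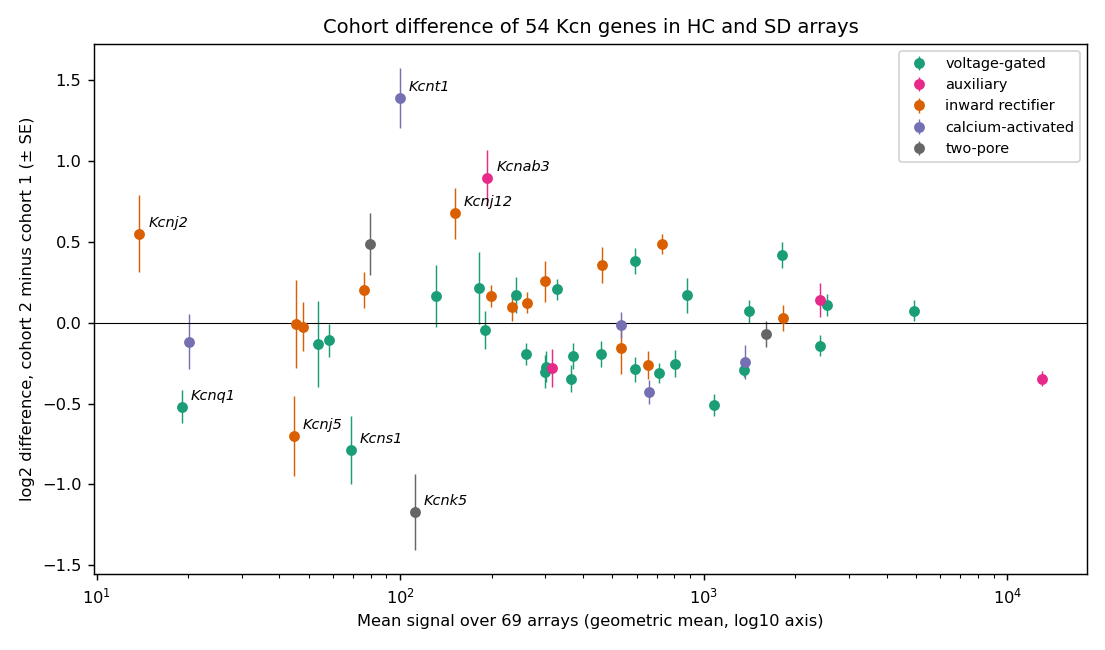
Log2 difference of cohort 2 from cohort 1 (± SE, 53 HC and SD arrays) for each of the 54 Kcn genes against its mean signal over 69 arrays (geometric mean, log10 axis), coloured by group of channels. Kcnt1 (1.39) and Kcnk5 (-1.17) lie farthest from 0, and the wider differences and errors are at low signals.

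The spread within a group and cohort set the size of change that could be seen. It had a median standard deviation of 0.28 on the log2 scale (0.15 to 0.72) over the 24 Kcn genes in the upper 50% of signals, and of 0.53 (0.21 to 0.99) over the 30 below that limit, which was a signal of 440. Mean signals ran from 13.8 for Kcnj2 to 13015 for Kcnab2, and no Kcn value was at 0. The median signal per array ran from 404 to 488 and the GAPDH 3′ to 5′ ratio from 0.916 to 1.26. The marker genes of pyramidal neurons Camk2a, Nrgn and Pou3f1 were measured on every array with lowest signals of 550.6, 19300 and 1104.9.

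The 54 genes had 82 probe sets, and 22 genes had more than 1. Of the 28 further probe sets, 18 had the sign of the brightest one at 24SD, 19 at 72SD, 17 at 24NES and 14 at 72NES, and 0 passed the adjusted test over all probe sets in any of these comparisons. For the cohort difference 22 of 28 had the same sign and 8 passed. Where probe sets of a gene disagreed, as for Kcnd2, Kcne1, Kcnc2, Kcnj4 and Kcna2 above, the value given for the gene is that of 1 probe set.

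Lists of genes that act with the channels were counted beside them. Of 17 partner proteins, such as scaffolds, accessory subunits and calmodulin, 12 were measured, and 3 were higher and 9 lower at 24SD, with 0 past the adjusted test and a median log2 change of -0.06 against -0.03 over all genes. Among them Cntnap1, which separates the axon domains that hold Kv1 channels from the node, was at -0.18 ± 0.07 (SE) at 24SD (adjusted p = 0.187), and Dlg4, the scaffold PSD-95, was at 0.32 ± 0.13 at 72SD (adjusted p = 0.568). Of 15 genes for other potassium and cation transport 7 were measured, with 4 higher and 3 lower at 24SD, 3 higher and 4 lower at 24NES, and 0 past the adjusted test. Slc12a7, a potassium-chloride cotransporter, was at -1.01 ± 0.25 at 24NES (adjusted p = 0.147) and at -0.29 ± 0.18 at 24SD. Slc12a2, the sodium-potassium-chloride cotransporter NKCC1, was at 0.47 ± 0.14 at 24NES (adjusted p = 0.217), and Atp1b2, a beta subunit of the sodium pump found in glia, was at -0.17 ± 0.05 at 24SD (adjusted p = 0.116).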

How the data were processed

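RNA of the CA1 region was hybridized to Affymetrix RGU34A arrays, 1 per rat. The deposited values are MAS5 signal intensities, computed by the authors and scaled by them to a common target intensity, for 8799 probe sets. The 59 control probe sets were left out. Gene names came from the platform annotation, in which 7006 probe sets have 1 symbol, 308 several and 1426 none. Each of 4736 genes took its brightest probe set.

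Signals below 1 were set to 1 and log2 was taken. limma 3.58.1 (R 4.3.3) was fitted across all genes, with Benjamini-Hochberg adjustment over all of them. The SD fit held 53 HC and SD arrays with cohort as a term, and NES fits held cohort 1 only. Changes of SD from HC are over both cohorts unless a cohort is named, also beside HC signals of cohort 1. SD against HC and NES against HC were F-tests over both durations. Adjusted p-values below 0.05 were called. The script was tested on simulated data. Members and lists were chosen with earlier results of these data known. Values are given for Kcnj10 and Kcna1, for Kcnf1, Kcnh2, Kcnj14 and Kcns3, which the study picked from these same arrays, for every gene with an unadjusted p under 0.05 in SD against HC, NES against HC, SD against NES or the cohort interaction, for the 2 members of each group with the highest mean signal and up to 3 with the smallest p in SD against HC. Genes with an unadjusted p under 0.05 at a single duration were added. Alternatives covered scaling (quantile, median centring), a floor of 50, the upper 50% of signals, every probe set, a shared fit, cohorts, left-out arrays and the ANOVA of the methods. Promoter sequences came from the RefSeq table of GRCr8, which matched 40 of the 54 genes. The number of arrays limits the precision, and signals of different probe sets were not compared.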

Additional observations from a re-analysis of the deposited data

Results flagged for a closer look

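Among 192 sets of values (the named genes in each group and cohort of 5 to 10 arrays) 16 held 1 array far from the rest of its group and cohort, by the gap to its neighbour as a share of the whole range. Chance alone would mark about 1 in 20 sets if the values were normal and independent, but sets of different genes share arrays. Whether the count exceeds chance was not tested. Kcnj10 was at 76.6 in array 71 of 72NES, where the other arrays ran from 383.3 to 774.1. In HC of cohort 1, array 3 was low for Kcnk5 (65.2 against 223.8 to 296.2) and for Kcnmb1 (917.6 against 1408 to 1622), and array 5 was low for Kcnj4 (533.1 against 605.3 to 632.7). In 24SD of cohort 1, array 24 was low for Kcnc1 (1038 against 1356 to 1583) and Kcnc2 (1751 against 2435 to 2722), array 23 was low for Kcnab1 (1366 against 2213 to 2755), and array 19 was high for Kcnq3 (1025 against 663.6 to 786.1). In 24SD of cohort 2, array 33 was low for Kcna2 (15.5 against 46.5 to 101.2), array 35 for Kcnj15 (140 against 261.7 to 397.5) and array 30 for Kcnma1 (377.1 against 527.4 to 655.9). In 72SD of cohort 1, array 36 was low for Kcnd2 (982.8 against 1505 to 2102), array 43 for Kcnmb1 (795.8 against 1289 to 1891) and array 39 for Kcnn1 (261.3 against 474.6 to 758.9). Kcnn1 was also low in array 69 of 72NES (240.7 against 463.6 to 569.4), and Kcnk1 was high in array 58 of 24NES (2951 against 1383 to 1797).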

How the results depend on the processing

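Of 440 values of the named genes under alternatives, 428 kept their direction and their side of the threshold, 2 came to pass it and 10 changed sign. At 24SD 1 Kcn gene (Kcnj10) passed when only the upper 50% of signals were tested, a fit with fewer genes to adjust over. With all 69 arrays in 1 fit, 1 Kcn gene (Kcnj10) passed in NES against HC and 1 at 24NES. Without array 71, 1 Kcn gene (Kcna2) passed between the NES durations. The 24NES change of Kcnj10 was -1.79 in both fits, with an SE of 0.39 in the fit of 69 arrays and 0.51 in the NES fit. The Kcna2 difference was -1.88 ± 0.33 (SE) without array 71 and -1.70 ± 0.33 with it. Why the spread of Kcnj10 differed between groups was not tested. The cohort difference was called in 15 Kcn genes in the upper 50% of signals, where 24 were tested, and in 15 to 31 over all settings. Leaving out each HC array of cohort 1 in turn, the 24NES change of Kcnj10 ranged from -1.89 to -1.69. With other probe sets, the 24SD change was -0.060 for Kcnd2 and 0.040 for Kcne1, the 72SD change 0.12 for Kcnh2, the 24NES change -0.21 and -0.18 for Kcnc2, 0.056 for Kcne1 and -0.11 for Kcnj4, the 72NES change 0.26 for Kcnq3, and the difference of 72SD from 72NES -0.17 for Kcna2. In cohort 1 alone, Kcnh8 was at 0.055 at 72SD, against -0.21 over both cohorts. Over all genes, with 1 probe set each, calls ranged from 0 to 98 for SD (6 as reported), 0 to 39 for 24SD (9), 0 to 4 for 72SD (1), 0 to 5 for the cohort interaction (5), 0 to 43 for NES (0), 0 to 72 for 24NES (0), 0 to 4 for 72NES (0), 0 to 2 between the NES durations (0), 0 to 1 for 24SD against 24NES (1) and 1701 to 2559 for cohort (2498). Of all 8740 probe sets 4402 were called for cohort. Kcn genes with an unadjusted p under 0.05 numbered 3 to 8 for SD, 4 to 9 for 24SD, 1 to 5 for 72SD, 6 to 11 for NES, 5 to 10 for 24NES and 3 to 7 for 72NES. With signals under 50 set to 50, Kcnq1 had no value. No paired analysis was possible because each rat has its own number, which no other group shares.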
